A study of Mus musculus with 5 samples.

Results

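The genes described here are 9 genes of the lipid droplet and of intracellular fatty acid binding: the droplet coat genes Plin1, Plin2 and Plin4, the droplet regulators Hilpda and Pnpla2, the fatty acid receptor gene Cd36, and the fatty acid binding protein genes Fabp3, Fabp4 and Fabp5. They were taken by symbol from the 31053 genes of the deposited matrices, whatever their level, and all 9 were found in each of the 5 libraries. The study profiled single cells of ovaries from untreated C57BL6/J mice at 2, 3, 4, 5 and 6 wk, spanning the growth and loss of the first wave of follicles, puberty and the period before the first ovulation. Ovaries were dissociated with trypsin, live cells were sorted by exclusion of SYTOX Orange, a dye that enters dead cells, and 3′ libraries were made with the 10x Genomics v3.1 chemistry. Each age was 1 library, and nothing in the labels gives the number of animals in it, so an age has no replicate and no test between ages was run. The levels are counts of unique molecular identifiers (UMIs, 1 per captured transcript) added up over each group's cells within a library and scaled to counts per 1e6 UMIs of that group (CPM), with exact Poisson 95% intervals that cover counting error only.

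Cells store neutral lipid, mostly triglycerides and cholesteryl esters, in droplets wrapped by a single phospholipid layer. Perilipins coat the droplet and control the access of lipases, adipose triglyceride lipase (the product of Pnpla2) takes the first fatty acid off a triglyceride, and Hilpda protein inhibits that lipase. In the ovary, theca and luteal cells draw the cholesterol for steroid synthesis from such stores and from circulating lipoproteins, and fatty acid binding proteins carry fatty acids through the cytoplasm of cells that burn, store or pass them on.

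Of 7 genes with at least 100 UMIs in theca-like cells, 2, Fabp3 and Cd36, were at least 2-fold lower at 6 wk than at 5 wk, and 1, Hilpda, at least 2-fold higher. Of all 9207 such genes 8.78% and 5.95% were. The 250 bases before a RefSeq start of each of the 3 are given because their levels parted most there. In another clustering, described below, the Cd36 ratio lay on the other side of 1 and that of Hilpda just under 2-fold. The sequences are from the RefSeq annotation of GRCm38.p6, written 5′ to 3′ on the strand of the gene, with capitals for the letters of a searched motif on either strand. The Fabp3 stretch is chr4:130308488-130308737 (plus strand), that of Cd36 is chr5:17835897-17836146 (minus strand), inside the longer span of the gene, and that of Hilpda is chr6:29272376-29272625 (plus strand), before the second of its 2 starts. The stretches of Fabp3 and Hilpda also reach into the gene spans given below, which begin at 130308595 and 29272488.
Fabp3: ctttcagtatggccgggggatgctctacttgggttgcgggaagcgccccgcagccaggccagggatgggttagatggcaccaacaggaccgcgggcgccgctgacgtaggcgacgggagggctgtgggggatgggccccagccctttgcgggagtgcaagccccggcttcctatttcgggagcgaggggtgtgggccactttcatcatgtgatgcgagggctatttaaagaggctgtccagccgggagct
Cd36: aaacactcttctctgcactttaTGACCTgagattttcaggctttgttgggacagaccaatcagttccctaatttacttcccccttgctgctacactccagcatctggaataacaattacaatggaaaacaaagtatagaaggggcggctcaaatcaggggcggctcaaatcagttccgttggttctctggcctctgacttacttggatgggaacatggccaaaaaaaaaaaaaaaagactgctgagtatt
Hilpda: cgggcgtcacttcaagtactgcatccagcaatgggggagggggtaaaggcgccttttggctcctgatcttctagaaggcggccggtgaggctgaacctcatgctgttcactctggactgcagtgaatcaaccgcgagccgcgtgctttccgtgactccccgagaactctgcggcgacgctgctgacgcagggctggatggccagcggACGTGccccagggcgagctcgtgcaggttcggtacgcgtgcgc
The motifs searched on both strands of the windows from 250 bases before to 50 bases after a start were CAAGGTCA and the AGGTCA inside it, sequences bound by nuclear receptors such as Nr5a1, the ACGTG core bound by hypoxia-inducible factors, and the TATAAA box. Over all 32851 RefSeq windows of this length, 1.56% held CAAGGTCA, 16.3% held AGGTCA, 19.6% held ACGTG and 13.6% held TATAAA. Cd36 had AGGTCA on the minus strand of the window, its first letter 228 bases before the start, and Hilpda had ACGTG 43 bases before its second start. That ACGTG lies inside the gene span given below, and the window of the first Hilpda start held none of the 4 motifs. In the Fabp3 window none of the 4 motifs was written. Of the other genes with a window, Plin2 held AGGTCA 218 bases before its start and ACGTG on both strands at 3 and 4 bases before it, whereas Plin1, Plin4 and Pnpla2 held none. A match describes the letters of a window and does not show that a factor binds there.

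Seurat clusters of all cells were named from marker genes, none of them among the 9, and carry the suffix "-like". Granulosa-like cells numbered 17802, stromal-like 13772, smooth muscle-like 4138, theca-like 1409, pericyte-like 862, blood endothelial-like 713, hematopoietic-like 495, surface epithelial-like 321, lymphatic endothelial-like 232 and rete ovarii-like 91, and the remaining cells stayed unnamed. Plin1, Fabp3, Fabp4, Fabp5, Cd36 and Hilpda were among the variable genes that the clustering used, so a difference between classes is a description and was not tested. The libraries held 7779 to 11077 cells and 93438618 to 144609431 UMIs, with medians of 9056 to 12424 UMIs per cell, and any pair of libraries shared 18 to 35 cell barcodes. Theca-like cells carried their markers in every library, but the 6 theca markers summed to 2998, 930, 2151, 10170 and 1398 CPM at 2, 3, 4, 5 and 6 wk. Germ cell, luteal and hematopoietic marker lists summed to at most 7.71 CPM in them, while red blood cell markers summed to 402.8 CPM at 5 wk and to at most 1.35 CPM at the other ages. Granulosa markers summed to 960 CPM at 5 wk against 432 to 609 CPM, stromal markers to 136 CPM against 394.5 to 766 CPM, and the median mitochondrial share was 9.35% at 5 wk against 3.98 to 5.25%. The 5 wk theca-like cells therefore stood apart in more than the genes described here, and the part of these differences in the results below was not tested. The 2, 3 and 4 wk matrices came from Cell Ranger 3.1.0 and the 5 and 6 wk matrices from 6.0.1, and this step cannot be told apart from age.

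**Figure D1:**
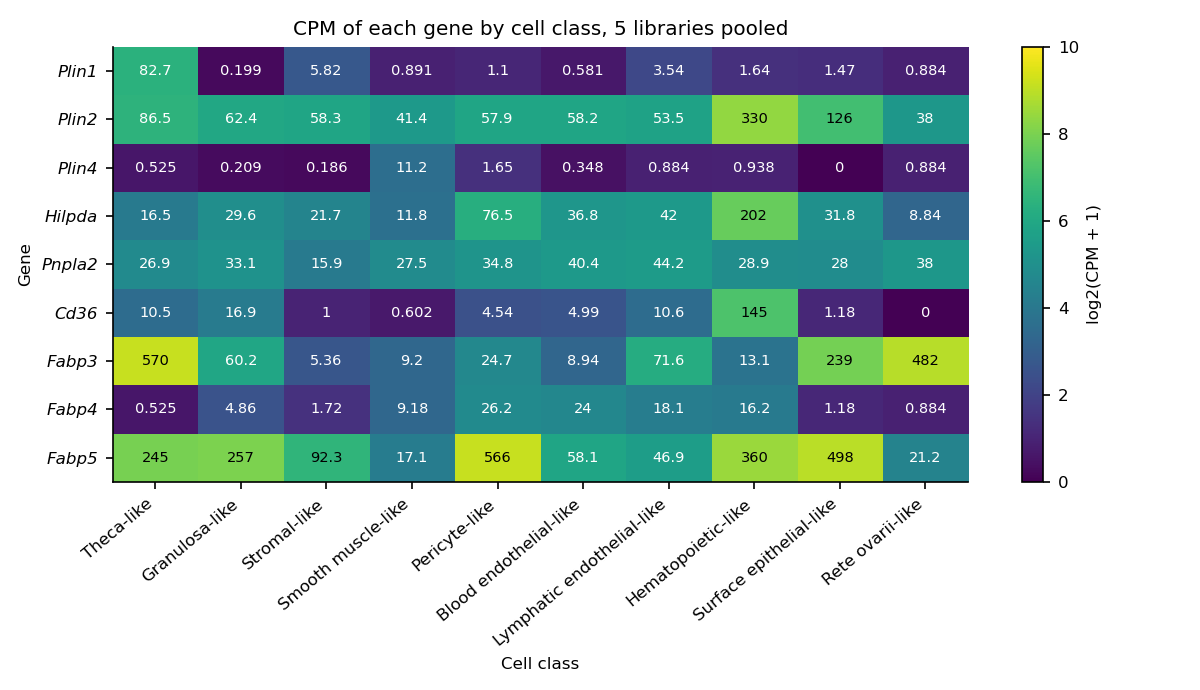
Heat map of the pooled level of each gene (rows, CPM printed in each field, colour on a log2(CPM + 1) scale) in the 10 named cell classes (columns) over the 5 libraries. Plin1 and Fabp3 were highest in theca-like cells, Plin4 in smooth muscle-like cells, Plin2, Cd36 and Hilpda in hematopoietic-like cells and Fabp5 in pericyte-like cells.

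Plin1 (ENSMUSG00000030546, chr7:79720218-79732903 on the minus strand of GRCm38, 9 exons in its longest coding transcript) encodes the perilipin best known from the droplets of fat cells and steroid-making cells. It was concentrated in theca-like cells, which were 2.93% of all cells and held 66.4% of the 3317 Plin1 UMIs, and stromal-like cells held a further 27.3%. In theca-like cells it measured 88.1 CPM at 2 wk, 56.2 at 3 wk, 49.6 at 4 wk, 102 at 5 wk and 61.1 at 6 wk. Stromal-like cells measured 3.97, 6.17, 8.33, 7.84 and 5.04 CPM at these ages, and granulosa-like cells 0.147 to 0.297 CPM. The theca-like values thus lay above the range of every other class in all 5 libraries, and the smallest ratio over stromal-like cells in a library was 5.96 (4.83 to 7.36, counting error), at 4 wk. After each cell was thinned to 2000 UMIs, 7.38 to 17.9% of theca-like cells had a Plin1 UMI in a library, against 0.0226% of the granulosa-like cells of all libraries. Before thinning the shares were 40.9 to 79.5% and 0.320%, at pooled medians of 17343 and 15093 UMIs per cell.

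Plin1 also marks fat cells, which lie close to the ovary, so 6 markers of fat cells were read in the same groups. They summed to 0 to 2.13 CPM in theca-like cells, and Adipoq, Lep and Adrb3 had no UMI in them in any library. In stromal-like cells the list summed to 0.0536 to 1.06 CPM. Defining markers of fat cells were therefore at or near 0 in both classes that held Plin1.

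Plin2 (ENSMUSG00000028494, chr4:86648386-86670060, minus strand, 8 exons) encodes the perilipin found on droplets of most cell types. It was the most widely spread of the coat genes, and was highest in hematopoietic-like cells, with 171, 210, 338, 521 and 224 CPM from 2 to 6 wk. Surface epithelial-like cells followed with 113 to 141 CPM, then theca-like cells with 110, 87.9, 103, 76.8 and 91.7 CPM. These 3 ranges did not overlap. Granulosa-like cells, at 53.4 to 73.1 CPM, and stromal-like cells, at 47.0 to 68.5 CPM, overlapped each other and lay below the theca-like value of their own library in every case, by 1.24-fold (1.16 to 1.33) or more.

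Plin4 (ENSMUSG00000002831, chr17:56100591-56109803, minus strand, 9 exons) encodes a perilipin of small droplets and is expressed in muscle and fat. It had only 643 UMIs in all, of which smooth muscle-like cells, 8.59% of the cells, held 72.6%. Their level was 3.79 CPM at 2 wk (2.63 to 5.30), 3.51 at 3 wk, 11.9 at 4 wk, 19.9 at 5 wk (16.9 to 23.2) and 14.7 at 6 wk. The 4, 5 and 6 wk libraries were above the earlier ones beyond counting error, with a ratio of 5.23 (3.60 to 7.82) between 5 and 2 wk. Stromal-like cells stayed at 0.0891 to 0.298 CPM and theca-like cells had 14 UMIs in the 5 libraries. At 2000 UMIs per cell, 2.05% of smooth muscle-like cells had a Plin4 UMI against 0.0515% of stromal-like cells (8.87% and 0.203% before thinning, at medians of 8883 and 9666.5 UMIs per cell). Its gene overlaps Hdgfl2 on the opposite strand.

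Hilpda (ENSMUSG00000043421, chr6:29272488-29275446, plus strand, 2 exons) encodes a small droplet protein induced by low oxygen. Hematopoietic-like cells held the highest levels, with 397, 371, 187, 183 and 72.9 CPM from 2 to 6 wk, where the intervals of 2 and 3 wk and those of 4 and 5 wk overlapped and the 6 wk level was 0.183-fold (0.141 to 0.236) that of 2 wk. The class held different cells at these ages, as T cell-like cells, with 169 of its 242 UMIs at 2 wk and 46 of 84 at 6 wk, were 18 of 51 and 20 of 129 of its cells, and 2 of them held 83 UMIs at 2 wk. The part of this make-up in the ratio was not tested. Pericyte-like cells measured 51.6 to 91.5 CPM. Granulosa-like cells, at 23.2 to 34.8 CPM, and stromal-like cells, at 15.8 to 33.2 CPM, overlapped. Theca-like cells were lowest of these 5 classes in the pooled counts, at 16.2, 21.5, 18.6, 11.5 and 31.2 CPM, and their lowest and highest values were those of the 5 and 6 wk libraries.

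Pnpla2 (ENSMUSG00000025509, chr7:141455198-141460743, plus strand, 9 exons) was the most even of the 9. Its pooled levels ran from 15.9 CPM in stromal-like to 44.2 CPM in lymphatic endothelial-like cells. Theca-like cells measured 15.3 CPM at 2 wk (10.7 to 21.2), 29.7 at 3 wk, 31.6 at 4 wk, 28.2 at 5 wk and 21.0 at 6 wk, and granulosa-like cells 28.9 to 39.9 CPM. Blood endothelial-like cells were above stromal-like cells in all 5 libraries, by 1.99-fold (1.27 to 2.97) at 4 wk to 4.16-fold (2.52 to 6.51) at 3 wk.

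Cd36 (ENSMUSG00000002944, chr5:17781690-17888801, minus strand, 15 exons) encodes a surface receptor that takes up fatty acids and oxidised lipoproteins, known from macrophages, fat cells and capillary endothelium. Hematopoietic-like cells had the highest level, at 95.2, 88.4, 103, 250 and 92.8 CPM, but as a small class they held 9.27% of its 6669 UMIs, and granulosa-like cells held 75.0%. In granulosa-like cells Cd36 measured 4.44 CPM at 2 wk, 3.44 at 3 wk, 15.2 at 4 wk, 31.3 at 5 wk and 27.1 at 6 wk. The first 2 libraries were far below the last 3, with a ratio of 7.06 (6.16 to 8.13) between 5 and 2 wk. Follicle stages among granulosa-like cells changed in share over the ages, as given below, and the part of this in the ratio was not tested. Stromal-like cells stayed at 0.603 to 1.32 CPM. Blood endothelial-like cells had only 43 Cd36 UMIs, a pooled level of 4.99 CPM (3.61 to 6.73), and 20 of these UMIs were in the 2 wk library. At 2000 UMIs per cell, 1.05% of blood endothelial-like cells had a Cd36 UMI, between the 0.177% of stromal-like and the 2.69% of granulosa-like cells. Unthinned, these shares were 2.38%, 1.05% and 16.3%, with a median of 8911 UMIs per blood endothelial-like cell.

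**Figure D2:**
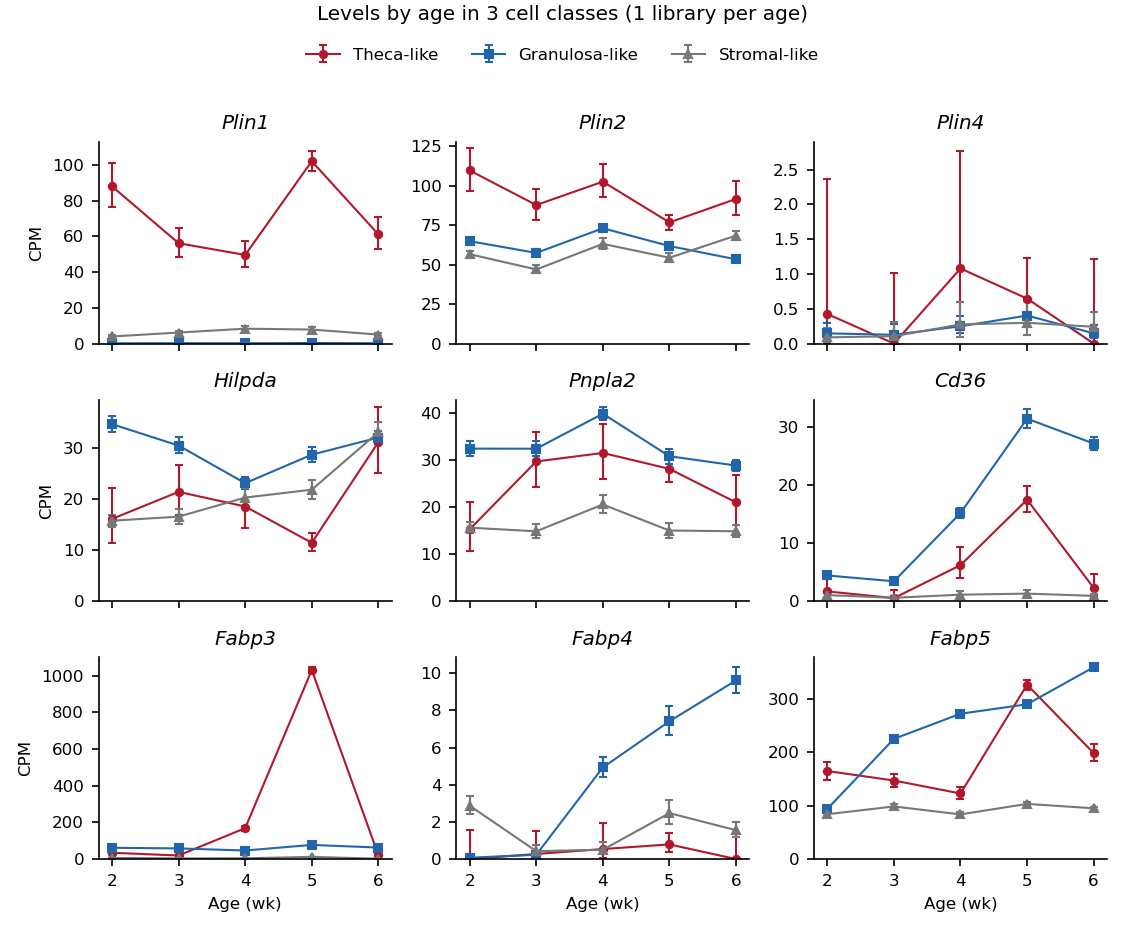
Level of each gene (CPM, linear axis from 0) against age in weeks in theca-like, granulosa-like and stromal-like cells, with 1 library per age and bars for exact Poisson 95% intervals. In theca-like cells Fabp3 was at 1030 CPM at 5 wk and at 19.6 to 168.5 CPM at the other ages, while Cd36, Fabp4 and Fabp5 of granulosa-like cells were higher at 4, 5 and 6 wk than at 2 wk.

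Fabp3 (ENSMUSG00000028773, chr4:130308595-130315463, plus strand, 4 exons) encodes the fatty acid binding protein of heart and skeletal muscle, which feeds fatty acids to mitochondria. Granulosa-like and theca-like cells held 47.2% and 40.2% of its 37729 UMIs. In granulosa-like cells it measured 61.4, 58.1, 46.6, 77.2 and 62.8 CPM from 2 to 6 wk, lowest at 4 wk and highest at 5 wk beyond counting error. Theca-like cells measured 34.5 CPM at 2 wk (27.4 to 42.8), 19.6 at 3 wk (15.3 to 24.7), 168.5 at 4 wk, 1030 at 5 wk (14341 UMIs in 606 cells) and 22.0 at 6 wk (17.1 to 28.0). They were therefore below granulosa-like cells at 2, 3 and 6 wk and above them at 4 and 5 wk, by 3.61-fold (3.31 to 3.94) and 13.3-fold (12.9 to 13.8).

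The pooled Fabp3 level of theca-like cells, 570 CPM, rests on the 5 wk library. Within libraries, surface epithelial-like cells were higher at 2, 3 and 6 wk, with 115, 209 and 349 CPM, and rete ovarii-like cells had 438 CPM in 54 cells at 2 wk and 623 CPM in 31 cells at 3 wk. In lymphatic endothelial-like cells the 5 wk value of 141.5 CPM came from 2 cells, which held 145 of the 148 UMIs. Of the last 500 bases of the Fabp3 transcript, where the 3′ reads lie, 106 of the 441 60-base words are shared with the pseudogene Fabp3-ps1, and 2 genes, Gm10570 and Zcchc17, overlap Fabp3 on the opposite strand. How Cell Ranger treated such reads was not measured here.

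Fabp4 (ENSMUSG00000062515, chr3:10204088-10208576, minus strand, 4 exons) encodes the fatty acid binding protein of fat cells, macrophages and capillary endothelium. Theca-like cells had 14 of its 2771 UMIs and the 2 and 6 wk libraries had none there. In granulosa-like cells it measured 0.0733 CPM at 2 wk (4 UMIs), 0.232 at 3 wk, 4.93 at 4 wk, 7.42 at 5 wk and 9.62 at 6 wk. The 5 intervals of this series did not overlap except those of 2 and 3 wk, and the ratio of 6 over 2 wk, 131, had a wide interval of 51.0 to 482.5 because of the 4 UMIs at 2 wk. This series also came with the changed shares of follicle stages. Its level per class was highest in pericyte-like cells, 26.2 CPM pooled with 9.03 to 78.0 CPM in a library, and in blood endothelial-like cells, 24.0 CPM pooled.

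The blood endothelial-like values of Fabp4 were uneven, at 105, 0, 37.7, 15.3 and 5.97 CPM from 2 to 6 wk. At 2 wk, 2 of the 118 cells held 59.4% of the 96 UMIs, and at 3 wk 0 UMIs were counted in 68 cells, which allows up to 9.30 CPM at a floor of 3 counts. At most 7.14% of blood endothelial-like cells of a library had a Fabp4 UMI after thinning. Most cells of this class therefore gave no Fabp4 UMI at this depth.

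Fabp5 (ENSMUSG00000027533, chr3:10012548-10016607, plus strand, 4 exons) encodes the epidermal fatty acid binding protein, which is found in many cell types. With 112176 UMIs it was counted most often of the 9 genes, and granulosa-like cells held 67.9% of them. Their level was 93.9 CPM at 2 wk, 225 at 3 wk, 272 at 4 wk, 290 at 5 wk and 360 at 6 wk, higher in each library than in the one before and 3.83-fold (3.72 to 3.95) higher at 6 than at 2 wk. The shares of follicle stages changed between these libraries, as given below, and the part of this in the ratio was not tested. Theca-like cells had 165, 147, 123, 327 and 199 CPM, with the highest value at 5 wk. Stromal-like cells were level at 83.8 to 104 CPM. Pericyte-like cells, at 319 to 673 CPM, and surface epithelial-like cells, at 301 to 584 CPM, had the highest pooled levels, and their ranges overlapped each other and, at their lower ends, that of granulosa-like cells. Hematopoietic-like cells had 940 CPM at 5 wk and 46.0 to 118 CPM at the other ages.

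To follow theca cells through the loss of wave 1 follicles and puberty, the 2 wk, 5 wk and 6 wk libraries were compared in theca-like cells. At 5 wk, 2 of the 7 genes with at least 100 UMIs over both libraries were at least 2-fold higher than at 2 wk, Fabp3 by 29.9-fold (24.0 to 37.7) and Cd36 by 10.3-fold (3.96 to 37.9), where 8.26% of all 9094 genes with that many UMIs were. Fabp5 (1.98-fold, 1.79 to 2.20) and Pnpla2 (1.84-fold, 1.30 to 2.66) fell short of the limit, Plin1 was at 1.16-fold (1.002 to 1.35), and Plin2 (0.700, 0.611 to 0.805) and Hilpda (0.711, 0.496 to 1.04) were at lower ratios. Plin4 and Fabp4 had too few UMIs to be counted. The ratios of 5 over 2 wk were 14.9 for Fabp3, 4.24 for Cd36 and 0.793 for Plin1 when the libraries were merged without integration before clustering, and Fabp3 was at 19.0 under a stricter cell filter that asked for 1000 detected genes and a mitochondrial share below 10%.

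At 6 wk, 2 of 7 genes were at least 2-fold lower than at 5 wk, Fabp3 at 0.0214 (0.0166 to 0.0272) and Cd36 at 0.132 (0.0524 to 0.276) of the 5 wk level, with 8.78% of 9207 genes past this limit. Hilpda was the 1 gene past 2-fold in the other direction, at 2.72 times the 5 wk level (2.09 to 3.53), where 5.95% of genes were. Plin1 (0.599, 0.511 to 0.698), Fabp5 (0.607, 0.557 to 0.661) and Pnpla2 (0.747, 0.565 to 0.975) were lower and Plin2 (1.19, 1.04 to 1.36) higher by less than 2-fold. When the libraries were merged without integration, 4 of the 7 ratios of 6 over 5 wk lay on the other side of 1, at 1.38 for Cd36, 1.21 for Fabp5, 1.11 for Pnpla2 and 0.694 for Plin2, and those of Fabp3 and Plin1 were 0.125 and 0.130. That of Hilpda was 1.98, just under the limit. The 6 wk theca-like class of that merging had Plin1 at 9.36 CPM, Fabp3 at 96 CPM and Fabp5 at 407 CPM. Plin1 lay below, and Fabp3 and Fabp5 above, the 6 wk theca-like values given earlier. Fabp4 was at 4.91 CPM in the class of that merging and had 0 UMIs in the theca-like cells at 6 wk. The class of the merging thus held cells that the theca-like class did not, and their part in these ratios was not tested. Fabp3 was at 0.0342 under the stricter cell filter. The 2 comparisons share the 5 wk library, so each carries whatever was particular to that library.

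The share of theca-like cells with a Fabp3 UMI, after thinning to 2000 UMIs, was 5.38% at 2 wk, 4.51% at 3 wk, 16.2% at 4 wk, 62.2% at 5 wk and 2.14% at 6 wk. Unthinned, it was 23.4, 13.0, 41.2, 84.7 and 16.4%, at medians of 12357 to 22148 UMIs per cell. Stromal-like cells, which served as the class with little Fabp3, measured 6.24, 3.72, 4.25, 12.2 and 1.88 CPM in the same libraries and also had their highest value at 5 wk, with the theca-like level 84.5-fold (75.1 to 95.3) above it there. The 5 wk level did not rest on a few cells, as the 2 cells with the most held 2.69% of the 14341 UMIs. It was uneven, as 97 of the 606 cells held about as many of these UMIs as all the others together. Of the 243 Cd36 UMIs at 5 wk, 8.23% were in the 2 cells with the most, and 37 cells held about as many as all the others together.

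The theca-like, stromal-like and smooth muscle-like cells were clustered a second time. This gave an early theca-like cluster of 1868 cells, led by Colec11, Alpl and Mest, and 2 late theca-like clusters that carried the steroid-making markers. The early cluster held 1 cell of the theca-like class at 5 wk and 0 at the other ages. Its cells were thus almost all counted as stromal-like or smooth muscle-like in the comparisons of classes. Late cluster A (913 cells) was led by Cyp11a1, Serpina5 and Bpifb4, and late cluster B (571 cells) by Cpa1 and Aldh1a7. Of the cells of cluster B, 66 of 103 at 2 wk and 93 of 109 at 5 wk were in the theca-like class. The rest were counted as stromal-like or smooth muscle-like in the comparisons of classes. A further cluster of 334 cells mixed theca and granulosa markers, 48.5% of its cells were called doublets, and it stayed unnamed. Cluster A made up 44.5, 51.4, 63.4, 80.9 and 39.3% of the theca-like cells from 2 to 6 wk. Fabp3 was among the 10 genes that set cluster A apart, so that it was higher there is no result. Its course over the ages within a cluster is likewise a description. Fabp3 took part in making the clusters, and 490 of the 913 cells of cluster A were from 5 wk.

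In late cluster A, Fabp3 measured 57.6 CPM at 2 wk, 31.5 at 3 wk, 270.0 at 4 wk, 1234 at 5 wk and 34.4 at 6 wk, with a ratio of 21.4 (16.7 to 27.9) between 5 and 2 wk and of 0.0279 (0.0201 to 0.0377) between 6 and 5 wk. Late cluster B measured 10.5, 2.59, 5.23, 26.3 and 2.06 CPM and the early cluster 3.97, 2.33, 3.64, 3.96 and 1.18 CPM. The high 5 wk value was thus seen within cluster A as well. Fabp3 took part in making this cluster and the second clustering was not run without it, so the part of a changed make-up was not tested. In cluster B the 5 wk value was smaller, and 2 cells held 42.6% of its 61 UMIs at 5 wk. Beside it, theca markers in cluster A summed to 11660 CPM at 5 wk and to 1621 to 6150 CPM at the other ages, red blood cell markers to 506 CPM and at most 1.09 CPM, and granulosa markers to 965 CPM and 183 to 368 CPM. The part of these in the Fabp3 level was not tested.

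Plin1 took another course in the late clusters. In cluster A it was highest at 2 wk, with 160 CPM (137 to 186), then 65.7, 56.1, 105.5 and 95.8 CPM from 3 to 6 wk. In cluster B it was highest at 5 wk, with 18.5, 41.5, 41.9, 93.9 and 30.3 CPM. The 2 clusters were closest at 5 wk, with a ratio of 1.12 (0.971 to 1.30), and farthest at 2 wk, 8.67-fold (5.86 to 13.2) apart. Early theca-like cells had 5.33 to 16.01 CPM in every library, below both late clusters.

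**Figure D3:**
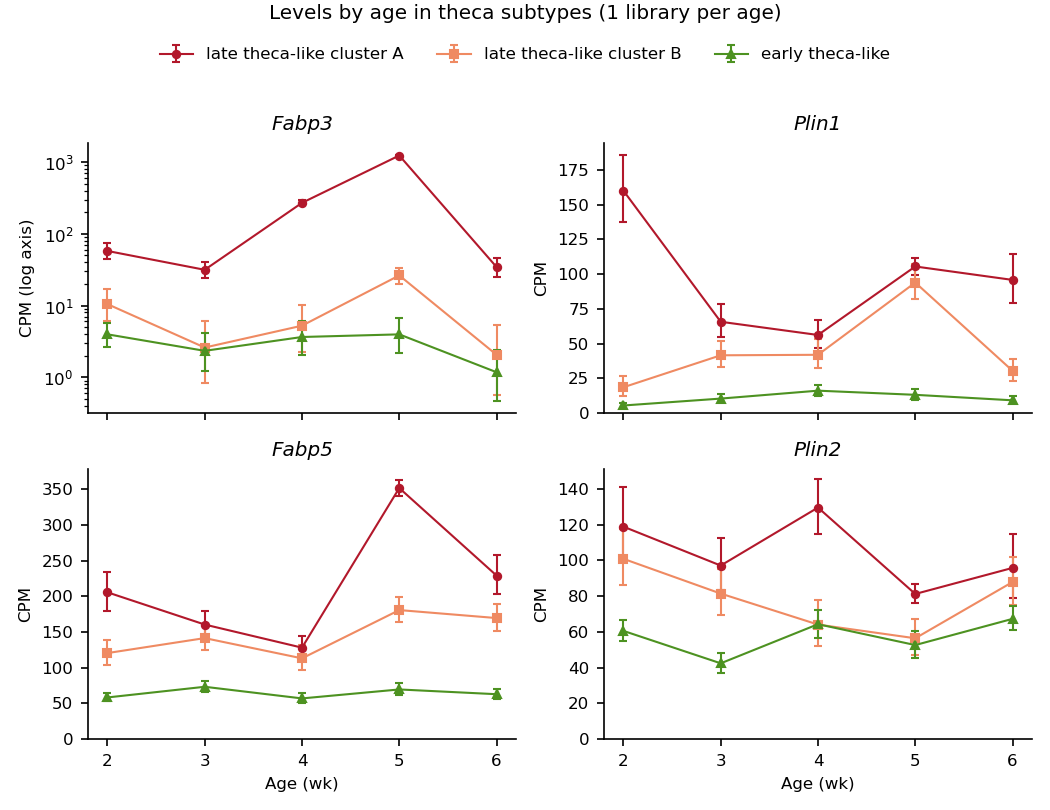
Levels of Fabp3 (log axis), Plin1, Fabp5 and Plin2 (linear axes from 0), in CPM, against age in weeks in late theca-like clusters A and B and the early theca-like cluster, with 1 library per age and exact Poisson 95% intervals. Fabp3 of late cluster A was at 1234 CPM at 5 wk and at 31.5 to 270.0 CPM at the other ages, and early theca-like cells stayed at 1.18 to 3.97 CPM.

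Fabp5 was higher in late cluster A, at 206, 161, 128, 352 and 229 CPM, than in early theca-like cells, at 57.0 to 73.3 CPM, in all 5 libraries. Late cluster B lay between them at 113 to 181 CPM, and its counts at 3 and 4 wk could not be told from those of cluster A, with ratios of 1.13 (0.959 to 1.34) and 1.13 (0.933 to 1.38). Plin2 was 119, 97.1, 130, 81.2 and 95.8 CPM in cluster A, 101, 81.5, 64.1, 56.4 and 87.9 CPM in cluster B and 42.4 to 67.3 CPM in early cells. Cd36 was counted mostly in cluster A among the 3 named clusters, 219 UMIs in all, with 194 UMIs at 5 wk (17.6 CPM, 15.2 to 20.2) and 0 to 20 UMIs at the other ages, whereas cluster B had 12 UMIs and early theca-like cells 12 UMIs in all. Hilpda in cluster B was 40.6 CPM at 6 wk (32.2 to 50.6) and 14.2 to 26.5 CPM before, and in cluster A it was 10.0 to 15.7 CPM throughout.

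The classes were then compared within each library. Plin1 was the 1 of 8 genes with at least 100 UMIs that was at least 2-fold higher in theca-like than in granulosa-like cells in all 5 libraries, by 266-fold (142 to 564) or more, where 4.6% of 14311 genes were. Over stromal-like cells, Plin1 and Fabp3, 2 of 8, passed this limit, where 2.76% of 13508 genes did, and the smallest Fabp3 ratio was 5.25 (3.83 to 7.17), at 3 wk. Plin1 and Fabp3 both took part in making the clusters. In granulosa-like over stromal-like cells Fabp3 and Cd36, 2 of 8, were at least 2-fold higher in every library, where 9.45% of 15141 genes were, and Plin1, 1 of 8, at least 2-fold lower, where 11.3% were, a share close to the background. Fabp3 was 6.33-fold (5.62 to 7.17) to 33.5-fold (26.4 to 43.0) higher and Cd36 4.15-fold (3.03 to 5.78) to 28.9-fold (20.7 to 41.6) higher.

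Blood endothelial-like cells were compared with stromal-like cells because Cd36 and Fabp4 are known from capillaries. None of 8 genes was at least 2-fold higher in all 5 libraries, where 8.34% of 13474 genes were. Plin1, 1 of 8, was counted as at least 2-fold lower, where 6.93% were. It had 0 UMIs in blood endothelial-like cells at 2, 3 and 4 wk, which passed as lower, and 2 and 3 UMIs at 5 and 6 wk. The interval of its 6 wk ratio of 0.356, 0.0727 to 1.055, spanned 1. Pnpla2 missed the limit in the 4 wk library alone, and Fabp4, from 3.84-fold (1.75 to 7.58) to 74.8-fold (35.0 to 170) higher in 4 libraries, had 0 UMIs in blood endothelial-like cells at 3 wk. Cd36 likewise had 0 UMIs there at 3 wk. In these 68 cells a count of 0 allows up to 9.30 CPM, above the Cd36 level of the 4, 5 and 6 wk libraries. That floor also lies above the stromal-like Plin1 level at 3 wk, so the 0 there cannot show a lower Plin1 level.

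Granulosa-like cells were clustered a second time into groups named for follicle stages. These run from primordial follicles, where a flat layer surrounds a resting oocyte, to antral follicles with a fluid-filled cavity. In remodeling follicles, as the study describes them, the oocyte and most granulosa cells are lost and a remnant of granulosa cells stays. Primordial-like cells numbered 810, primary-like 2641, secondary-like 880, antral-like 1641, remodeling-like 3193 and mitotic 2522, and 4 further clusters, led by Igfbp5, by Cda and Vpreb3, by Cdc6 and by Cyp11a1 and Inhba, stayed unnamed. Also unnamed were a cluster of 371 cells led by Col1a2, 44.7% of them called doublets, and one of 6 cells led by Ooep. These are not among the groups below but were counted in the granulosa-like class. The stages were not in equal shares in the libraries, as remodeling-like cells numbered 93 and 146 at 2 and 3 wk and 761 to 1319 later. Levels were therefore read within each library as well as pooled. The remodeling-like class also joined 3 clusters, and the one led by Pamr1 held 80 of its 93 cells at 2 wk and 100 of 146 at 3 wk but 153 to 197 cells at each later age, whereas those led by Gm15866 and S100a6 held 0 and 13 cells at 2 wk and 646 and 476 at 4 wk. A difference between early and late ages in remodeling-like cells is thus also one between clusters. The antral-like class joined the clusters led by Dnajb13 and by Frzb, which held 130 and 13 cells at 3 wk and 229 and 230 at 6 wk. Its differences between ages thus also carry a change in the shares of these clusters.

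Fabp5 had the widest span across the stages in absolute CPM. Its pooled level was 20.7 CPM in primordial-like cells (17.8 to 24.0), 49.3 in primary-like, 111 in secondary-like and 430 in antral-like cells (422 to 438), and 250 in remodeling-like cells. The increasing order from primordial to antral held in each library except that of 4 wk, where primordial-like cells (44.3 CPM) were above primary-like cells (32.6 CPM). Within antral-like cells Fabp5 measured 199, 542, 356, 446 and 522 CPM from 2 to 6 wk, so that all later libraries were above the 2 wk library. Within remodeling-like cells it measured 39.2, 53.3, 252, 233 and 295 CPM. Both courses come with the changes of clusters given above. In primary-like cells the ratio of 5 over 2 wk was 1.16 (0.975 to 1.36). After thinning, 45.8% of antral-like and 3.85% of primordial-like cells had a Fabp5 UMI, and 89.0% and 15.1% before thinning, at medians of 14764 and 10380.5 UMIs per cell.

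Cd36 and Fabp4 were found in the later stages. Cd36 was pooled at 2.38, 2.06 and 3.44 CPM in primordial-, primary- and secondary-like cells, whose intervals overlapped, and at 33.9 CPM (31.7 to 36.2) in antral-like and 28.6 CPM (27.0 to 30.2) in remodeling-like cells. In antral-like cells it measured 15.5, 5.86, 23.9, 44.0 and 50.2 CPM from 2 to 6 wk and in remodeling-like cells 5.02, 1.64, 17.7, 47.4 and 29.3 CPM. The 4, 5 and 6 wk libraries were thus above those of 2 and 3 wk in both stages, although the intervals of 2 and 4 wk overlapped in antral-like cells and the remodeling-like cells of early and late ages came mostly from different clusters. The clusters of the antral-like cells also changed in share, as given above.

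Fabp4 had 0 UMIs in the 810 primordial-like and the 880 secondary-like cells, which allows up to 0.340 and 0.184 CPM at the floor of 3 counts, and 5 UMIs in primary-like cells. Antral-like cells had 0 UMIs at 2 and 3 wk and 6.24, 6.72 and 7.06 CPM at 4, 5 and 6 wk, values whose intervals overlapped. In remodeling-like cells Fabp4 measured 9.17 CPM at 4 wk (7.75 to 10.8), 12.4 at 5 wk (10.5 to 14.6) and 27.4 at 6 wk (24.7 to 30.3), after 1 UMI at 2 wk and 0 at 3 wk, when most of these cells were of the cluster led by Pamr1. The unnamed cluster led by Cda and Vpreb3 was close to it, with 9.71, 14.9 and 26.6 CPM at 4, 5 and 6 wk and 0 UMIs before.

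Hilpda and Plin2 ran the other way along the first stages. Hilpda was at 75.1 CPM in primordial-like (69.5 to 81.1), 47.5 in primary-like, 35.0 in secondary-like and 29.1 in antral-like cells, and primordial-like cells were above primary-like and these above secondary-like cells in all 5 libraries, although the intervals of primordial- and primary-like cells overlapped at 4 wk. Plin2 measured 119 CPM in primordial-like (112 to 127), 78.5 in primary-like and 51.7 in secondary-like cells, again in this order in all 5 libraries. From secondary- to antral-like cells Plin2 hardly differed, at 50.4 CPM, whereas remodeling-like cells had 95.5 CPM (92.7 to 98.5) and were above antral-like cells in every library. The widest gap was 155 against 43.7 CPM at 2 wk, in 93 and 91 cells, and 80 of the 93 were of the cluster led by Pamr1.

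**Figure D4:**
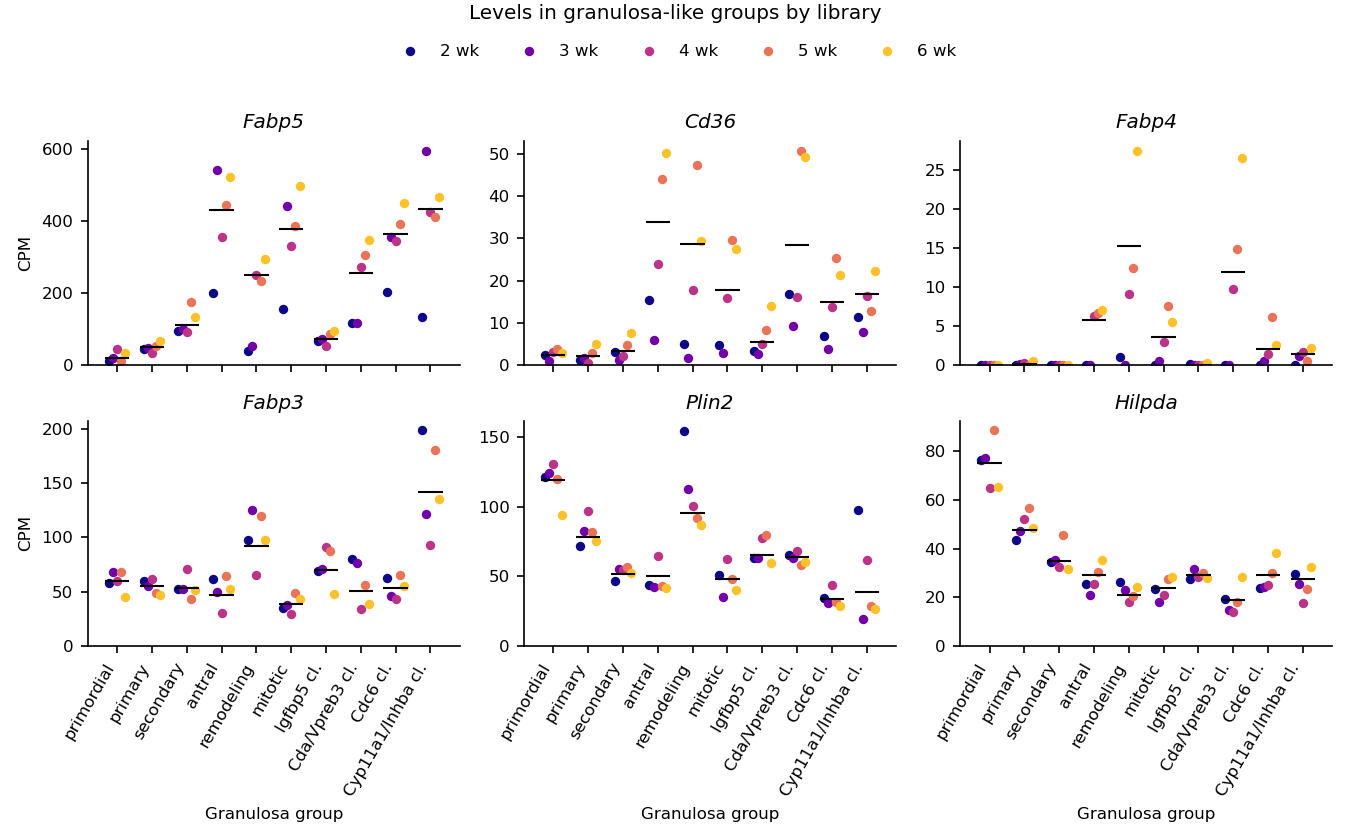
Levels (CPM, linear axes from 0) of Fabp5, Cd36, Fabp4, Fabp3, Plin2 and Hilpda in granulosa-like groups, with a point for each library in which the group had at least 30 cells and a black line for the pooled level. Fabp5 was at 430 CPM in antral-like cells and 433 CPM in the cluster led by Cyp11a1 and Inhba, Cd36 was highest in antral-like cells (33.9 CPM), and Hilpda was highest in primordial-like cells (75.1 CPM).

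Fabp3 was nearly level from primordial- to antral-like cells, at 59.5, 55.4, 53.3 and 46.6 CPM. Remodeling-like cells measured 92.3 CPM (89.5 to 95.2) and were above antral-like cells in every library, with 97.4, 126, 65.2, 119 and 97.8 CPM against 61.9, 49.8, 30.3, 63.9 and 52.4 CPM. The highest level was that of the unnamed cluster led by Cyp11a1 and Inhba, at 142 CPM pooled and 93.0 to 199 CPM in a library. Pnpla2 was 41.6 CPM in primordial-like, 30.7 in primary-like, 30.4 in secondary-like, 32.3 in antral-like and 44.6 CPM in remodeling-like cells, a narrow span in which the 3 middle stages had overlapping intervals.

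Among stromal-like groups, Fabp5 marked off the Cd24a stroma, with 189, 187, 164, 193 and 222 CPM from 2 to 6 wk, from the Col11a1, Col14a1, Cxcl12 and Hoxd9 stroma, which had 9.10 to 39.3 CPM in a library. The mitotic cells of this second clustering, which took in theca-like and smooth muscle-like cells as well, were close to the Cd24a stroma, at 153 to 216 CPM. The Cd24a stroma itself included a cluster led by Cdc6, with 548 of its 2159 cells. Plin1 had the same 2 groups on top, with 7.29 to 12.8 CPM in the Cd24a stroma and 5.20 to 11.7 CPM in mitotic cells, while the 4 other groups had pooled levels of 0.434 to 1.72 CPM. The early theca-like cluster, made almost wholly of stromal-like and smooth muscle-like cells, was not among these groups. Its Plin1 range, given above, reached higher than that of either group. Hilpda in the Cd24a stroma was 20.9, 19.4, 36.5, 32.6 and 56.5 CPM. Plin2 differed little between these groups, at 48.9 to 71.0 CPM pooled.

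In the blood lineage, macrophage-like cells (135) led in Plin2, at 600 CPM (558 to 644), and in Cd36, at 293 CPM (264 to 324); both genes are known from lipid-laden macrophages. In each library Plin2 was at 354, 360, 757, 757 and 401 CPM there, and only the 5 and 6 wk libraries held 30 or more such cells. Fabp5 in macrophage-like cells was at 1984 CPM at 5 wk and at 19.7 to 208 CPM at the other ages, and 2 of the 50 cells at 5 wk held 40.5% of its 1104 UMIs. Of its 1170 UMIs over all ages, 1104 were in that library, and at 6 wk dendritic-like cells were higher (191 against 51.1 CPM). T cell-like cells (87) had the highest pooled Hilpda level, with 1243, 2125, 478, 447 and 432 CPM from 2 to 6 wk in 13 to 21 cells each, and 2 cells held 49.1% of the UMIs at 2 wk and 62.0% at 3 wk. The T cell-like cluster was named from Cd3e, Cd3d and Cd3g, but its leading genes were others, headed by Ccl1, Csf2 and Tpsab1. Whether it held other cell types was not tested. Natural killer-like cells were higher in Hilpda at 4 wk (1216 CPM, 6 cells) and 5 wk (652 CPM, 5 cells). Cd36 in T cell-like cells had 3 UMIs, a level of 6.58 CPM (1.36 to 19.2).

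**Figure D5:**
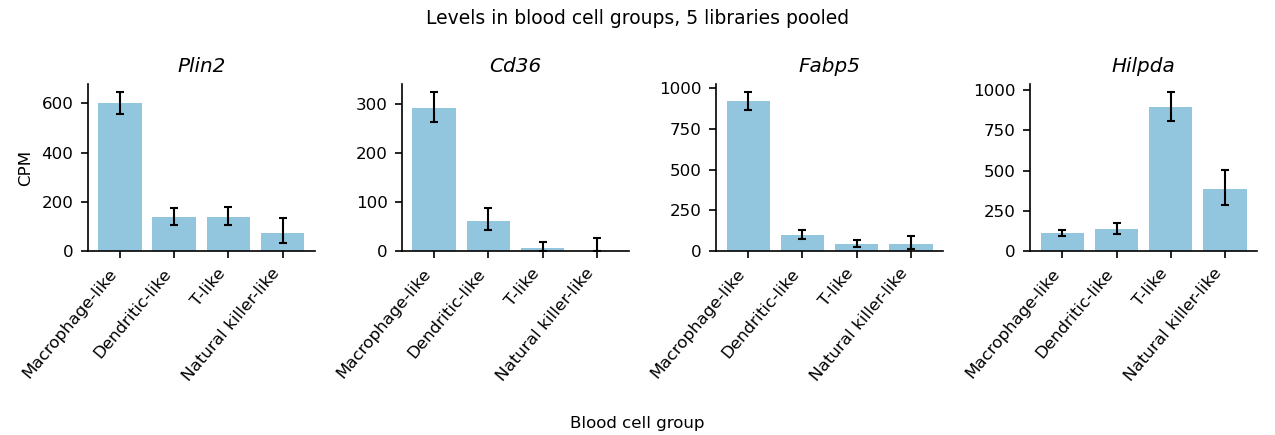
Bars show the pooled level (CPM, axes from 0) of Plin2, Cd36, Fabp5 and Hilpda in macrophage-like, dendritic-like, T-like and natural killer-like cells of the 5 libraries, with exact Poisson 95% intervals for counting error only. In these pooled counts macrophage-like cells were highest in Plin2 (600 CPM), Cd36 (293 CPM) and Fabp5 (918 CPM, resting on the 5 wk library), and T-like cells in Hilpda (894 CPM).

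A list of 52 other genes of droplet structure, lipolysis, ester synthesis, fatty acid uptake, the remaining fatty acid binding proteins and their regulators was read beside the 9. In theca-like cells 31 of them had at least 100 UMIs over the 2 and 5 wk libraries, and 5 were at least 2-fold higher at 5 wk (among them Lipe, Mgll, Gpam and Acsl4) and 0 at least 2-fold lower, where 8.26% and 6.07% of all genes were. The median log2 ratio of the 31 was 0.24, against -0.06 for all genes. Between 5 and 6 wk, 6 were at least 2-fold lower (Fitm2, Mgll, Soat1, Slc27a3, Acsl4 and Ppara) and 0 higher, where 8.78% and 5.95% of all genes were, with a median log2 ratio of 5 over 6 wk of 0.43 against -0.03. Over granulosa-like cells in all libraries, 7 of 41 were at least 2-fold higher in theca-like cells (Fitm1, G0s2, Mgll, Slc27a3, Scarb1, Cebpa and Nr5a1) and 4 lower (Cidea, Fabp7, Lpl and Pparg), where 4.6% and 9.71% of all genes were, so that the lower count is near the background. Over stromal-like cells 7 of 36 were higher (Fitm1, Soat1, Slc27a3, Scarb1, Ppara, Cebpa and Nr5a1) and 2 lower (Lpl and Pparg), where 2.76% and 7.79% of all genes were.

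The most counted of these in theca-like cells was Soat1, which esterifies cholesterol for storage, at 752, 488, 496.5, 1125 and 537.5 CPM from 2 to 6 wk. Scarb1, the receptor for high-density lipoprotein, measured 448, 273.5, 255, 496.5 and 252 CPM. Nr5a1, the nuclear receptor that drives steroid-making genes, measured 134, 163, 205, 163.5 and 155 CPM. It was highest at 4 wk and 1.22-fold (1.09 to 1.38) higher at 5 than at 2 wk. Cebpa ran from 42.7 to 102 CPM. Thus Soat1 and Scarb1, like Fabp3, were highest at 5 wk, but by 1.496-fold (1.42 to 1.57) and 1.11-fold (1.04 to 1.18) over 2 wk.

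Mgll, which cleaves the last fatty acid from glycerol, had the largest ratio of 5 over 2 wk on the list, 9.62 (5.19 to 20.2), at 4.25, 2.20, 5.12, 40.9 and 2.30 CPM. Lipe, hormone-sensitive lipase, followed at 3.94 (2.36 to 7.12), with 6.38, 10.7, 15.9, 25.1 and 13.2 CPM. Both had their highest value in the 5 wk library, as Fabp3 did. The smallest ratios were those of Bscl2, 0.573 (0.466 to 0.708), and Hsd17b11, 0.745 (0.624 to 0.894), which act in the making and on the surface of droplets. Pparg, the regulator of fat cell formation, had only 0.551 to 2.96 CPM in theca-like cells and 29.9 CPM in granulosa-like cells, and Hif1a was 55.6 to 78.7 CPM in theca-like cells in every library.

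The genes most like each member were sought among 13293 genes by the Pearson correlation of log2(CPM + 1) over the 46 groups of a class in a library with at least 30 cells, which share libraries and clusters. Plin1 was most like Sct (r = 0.913), Ms4a10 and Gsta2, of which Sct and Gsta2 were leading genes of late cluster B. Fabp3 was most like Gsta4 (r = 0.843), Mia and Aqp5, Plin2 like Npc2 (r = 0.842), Ftl1 and Snx5, and Cd36 like Pik3cg (r = 0.816), Plcb2 and P2ry6. The nearest to Hilpda were Rab8b (r = 0.812), Ccrl2 and Sub1, and to Plin4 Ppp1r12a (r = 0.804), Nacad and Myl6. Lower values were reached for Pnpla2 with Dync1h1 (r = 0.775), Plec and Pan3, for Fabp5 with Clstn3 (r = 0.744), Serpinb1a and Il34, and for Fabp4 with Rgs7bp (r = 0.735), Syne1 and Gm13889.

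Among the 9 genes themselves no pair came near these values except Cd36 and Hilpda (r = 0.703), Plin2 and Cd36 (r = 0.610) and Plin2 and Hilpda (r = 0.578), the 3 genes with their highest class level in hematopoietic-like cells. Plin1 and Fabp3, both highest in theca-like cells in the pooled counts, had an r of 0.156 over the same 46 groups. The lowest was that of Plin1 and Pnpla2 (r = -0.482). The 9 genes therefore did not share 1 pattern over the ovary.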

How the data were processed

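Ovarian cells of untreated mice were profiled at 5 ages with 1 library each. The authors aligned the reads and counted UMIs with Cell Ranger 3.1.0 (2, 3 and 4 wk) or 6.0.1 (5 and 6 wk), per their methods and processing notes, and deposited filtered matrices of whole-number counts per gene and cell with their barcodes and gene names. All deposited barcodes were used. The 5 libraries held 93438618 to 144609431 UMIs, and intervals and floors (3 counts) cover counting error only.

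Cells were integrated and clustered with Seurat 5.3.0 in R 4.3.3 (2000 variable genes, 30 components, 20 neighbours, resolution 1), and the mesenchymal, granulosa and hematopoietic-like cells were clustered again. Clusters were named from marker genes with at least 3 detected markers. The lowest mean score of 0.5 in the second clustering was set after its clusters had been seen. Doublets were called with Scrublet in scanpy 1.11.5 (162 to 555 cells a library, 2.08 to 5.01%) and were kept, and leaving them out was an alternative. Counts were summed per class and library. CPM had exact Poisson, shares exact binomial and ratios exact conditional 95% intervals (scipy 1.17.1). Shares of cells were also taken after thinning cells to 2000 UMIs, leaving out shallower cells. A gene was counted as different at 2-fold or more, in genes with at least 100 UMIs, and no test was run because an age has no replicate. The code for ratios and intervals was tested on simulated data.

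The 9 genes, the pathway list and the tests were chosen with earlier results of these data known. Named beside the 9 were, by rule, pathway genes by count and by ratio in theca-like cells and the 3 genes most correlated with each of the 9. Promoter sequences came from RefSeq for 7 of the 9 genes. Other clusterings, cell filters, scalings and fold limits were tried. Some genes are not reported here.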

Additional observations from a re-analysis of the deposited data

Results flagged for a closer look

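The 3 cases given here had a ratio between 2 ages above 1 in one group of cells and below 1 in another. Each rests on 1 library per age, and the difference between the groups was not tested. Other ages and groups held further such cases, as for Plin1 of 3 over 2 wk. That ratio was 0.410 (0.323 to 0.520) in late theca-like cluster A and 2.25 (1.46 to 3.54) in cluster B. The Plin1 ratio of 5 over 2 wk was 0.659 (0.562 to 0.777) in late theca-like cluster A and 5.09 (3.46 to 7.72) in late theca-like cluster B. The Plin2 ratio of 6 over 5 wk was 1.19 (1.04 to 1.36) in theca-like cells and 0.863 (0.823 to 0.906) in granulosa-like cells, but 0.694 in theca-like cells when libraries were merged without integration. For Fabp5 the ratio of 6 over 5 wk was 0.607 (0.557 to 0.661) in theca-like cells and 1.24 (1.21 to 1.26) in granulosa-like cells, but 1.21 in theca-like cells under that merging. Both theca-like ratios thus lay on the other side of 1 in the class of that merging. Its 6 wk theca-like class had Plin1 at 9.36 CPM, below the value given above. It had Fabp4 at 4.91 CPM, where the theca-like class had 0 UMIs, so it held cells that the theca-like class did not. The merging therefore cannot show whether the contrasts hold for the same cells.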

How the results depend on the processing

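No paired analysis was possible because each age has 1 library, and for the same reason no replicate could be left out. At a fold limit of 1.5, 4 genes were higher in theca-like cells at 5 than at 2 wk (Fabp3, Fabp5, Pnpla2 and Cd36) and 4 were lower at 6 than at 5 wk (Plin1, Fabp3, Fabp5 and Cd36), where 16.1% and 16.7% of all genes were. Late cluster B alone was a choice made after seeing the data. Over all its cells Plin1 was at 5.09 (3.46 to 7.72) for 5 over 2 wk and at 0.323 (0.238 to 0.432) for 6 over 5 wk. Fabp3, with only 61 UMIs at 5 wk, was at 2.51 (1.45 to 4.59) and 0.0783 (0.0207 to 0.211). Hilpda went the other way for 6 over 5 wk, at 2.86 (1.88 to 4.43). In blood endothelial-like over stromal-like cells, 0 of 8 genes passed in all libraries at the planned setting, where 8.34% of all genes did. Pnpla2, 1 of 8, passed at a limit of 1.5, as did 12.2% of all genes. It also passed with doublets left out, with a stricter cell filter or with the 9 genes left out of the principal components. The shares of all genes under the other settings are not reported here. When libraries were merged without integration, Cd36 was the 1 gene that passed. That merging also gave a Cd36 ratio of 6 over 5 wk in theca-like cells of 1.38, the reverse direction, and replaced genes in 2 comparisons without moving their counts. The 6 wk theca-like class of the merging held cells outside the theca-like class used above, and the cause was not tested. Of the 15 ratios between ages in theca-like cells, the merging moved 8 and reversed 1, and besides Cd36 it put Plin1 (0.793) of 5 over 2 wk and Plin2 (0.694), Fabp5 (1.21) and Pnpla2 (1.11) of 6 over 5 wk on the other side of 1. The stricter cell filter moved 4 and the mean over cells 3, and resolution 0.6 moved none. Counts of a few UMIs, such as Cd36 in theca-like cells at 2, 3 and 6 wk, limit the precision of their ratios.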
